A study of Sus scrofa with 20 samples.

Results

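Solute carriers are the large group of membrane proteins that move sugars, amino acids, ions, metals, vitamins, nucleotides and organic anions across the plasma membrane and the membranes of mitochondria, lysosomes and other organelles. They act as uniporters, as symporters driven by an ion gradient, or as exchangers, and they are numbered by family (SLC1, SLC2 and so on, with SLCO for the organic anion transporting polypeptides). Hepatocytes are known for carriers that take up bile acids, organic anions and amino acids from portal blood, and germ cells for carriers of lactate, carnitine and mitochondrial nucleotides.

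Solute carriers were taken as every reference ID whose pig gene symbol began with SLC, a family number and the letter A, or with SLCO. This gave 124 of the 21755 reference IDs counted in each sample, and 124 of the 6654 IDs with a symbol. The 124 IDs stood for 122 symbols, since SLC39A5 and SLC39A12 had 2 IDs each, out of 337 such symbols in the RefSeq table of the pig. SLC9A3R1 and SLC9A3R2 match the spelling but encode scaffold proteins that bind carriers, so 120 of the symbols were carriers. Counts of members below include both scaffolds unless stated otherwise. RNA had been sequenced from testis and from liver of boars with high and with low androstenone, a pheromone steroid made in the Leydig cells of the testis, degraded in the liver and stored in fat, where it contributes to boar taint. There were 5 samples in each of the 4 groups, each with 1 library. By the study's methods both tissues were taken from the same 5 boars with high and 5 boars with low androstenone, but the labels do not say which testis and liver share a boar, so the fits took the 20 samples as separate. The labels give an age of 116 days for every boar, which the study's methods give as an average, and the boars came from a cross of Duroc with an F2 stock bred from Leicoma, German Landrace and Large White pigs, and no treatment was given in the labels. The 4 groups were testis low androstenone, testis high androstenone, liver low androstenone and liver high androstenone, and the low groups served as the reference.

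The depth of a library, as the sum of its counts, lay between 6161397 and 15975386 for testis and between 5796973 and 26783002 for liver. Levels are given as counts per 1000000 after TMM scaling over all 20 samples (CPM), and 3 counts in a library were worth 0.130 to 0.357 CPM for testis and 0.218 to 0.673 CPM for liver on this scale, counting error only. The tissue labels were checked against marker genes. All 7 hepatocyte markers found of 12 were higher in liver, with ALB at 77690 to 226300 CPM in liver and 0.506 to 31.3 CPM in testis, and summed hepatocyte markers in testis stayed between 33.5 and 121 CPM. All 7 spermatid markers found of 12 and all 3 markers of spermatogonia and spermatocytes found of 8 were higher in testis, as were 3 of the 4 Leydig cell markers found and 3 of the 4 Sertoli cell markers found. Of these germ cell markers only ACRV1 overlapped between the tissues, with 4.11 to 210.6 CPM in liver and 186.9 to 599.2 CPM in testis. SYCP3 was also counted in liver, at 5.15 to 29.8 CPM against 288.5 to 472.9 CPM in testis. All 5 leukocyte markers found of 7, both endothelial markers found of 4 and HBB, the only erythroid marker found, were higher in liver, and 2 of 3 bile duct markers found were higher in testis. In such bulk samples, fewer cells of a type and less RNA per cell cannot be told apart. Liver high replicate 3 held the highest level for 22 of the 42 carriers with a mean of at least 5 CPM in liver, and for 28.3% of all reference IDs at that level. Testis low replicate 2 held the highest level for 6 and the lowest for 8 of the 41 such carriers in testis, and for 23.3% and 29.2% of all IDs. Without both libraries 92 of 118 members tested differed between the tissues, beside 14422 of 18994 IDs, against the 91 members described below.

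Most solute carriers were counted in at least 1 of the tissues. A mean of at least 1 CPM was reached in both tissues by 58 IDs, in testis alone by 17, in liver alone by 16 and in neither by 33. SLC22A12, the renal urate exchanger, and SLC32A1, the vesicular transporter of GABA and glycine, had no count in any sample. Together the 124 IDs took between 0.127% and 0.168% of all counts in testis and between 0.172% and 0.27% in liver. The ranges of the tissues did not overlap. Such sums are weighted by abundant IDs. SLC25A4 had 381 to 1282 CPM and SLC10A1 199 to 760 CPM in liver, against 61 to 219 CPM and 0.534 to 1.86 CPM in testis. The gap is therefore not read as a trait of carriers in general.

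The first comparison asked which carriers differ between testis and liver. Of the 124 IDs, 119 had at least 10 counts over the 20 samples and were tested with edgeR's quasi-likelihood test, and 91 had an adjusted p under 0.05 (Benjamini-Hochberg over all IDs) together with a fold change of at least 1.5. Of these, 46 were higher in testis and 45 were higher in liver. Both scaffolds were among those higher in liver, which leaves 89 of 117 carrier IDs, 46 higher in testis and 43 higher in liver. The 91 made up 76.5% of the tested members, against 75.7% of all 19065 IDs tested, shares that lie close together. By direction, 38.7% of the members were higher in testis against 43.5% of all IDs, and 37.8% were higher in liver against 32.2% of all IDs. With total counts in place of TMM scaling, the median log2 fold change of all IDs moved from 0.31 to 1.28, and the split of the members became 65 higher in testis and 34 higher in liver. Under that scaling 3 of the 91 called IDs turned direction, namely SLC25A3, SLC25A5 and SLCO2A1, and none did with RLE scaling or DESeq2.

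The sizes of the differences were also set beside those of all transcripts. The median absolute log2 fold change of the members was 2.26, or 2.19 with the 11 IDs without a count in a tissue set to their bound, against 1.71 over all IDs. A fold change of at least 4 was called for 66 members (55.5%, against 44.4% of all IDs), 34 higher in testis and 32 higher in liver, and these made up 28.6% and 26.9% of the members against 28.5% and 15.9% of all IDs. The 10 testis and 10 liver values did not overlap for 54 members, 27 in each direction. That is 22.7% in each direction, against 27.5% of all IDs higher in testis and 15.3% higher in liver. These shares are a description of the members, and no set test was made.

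**Figure D1:**
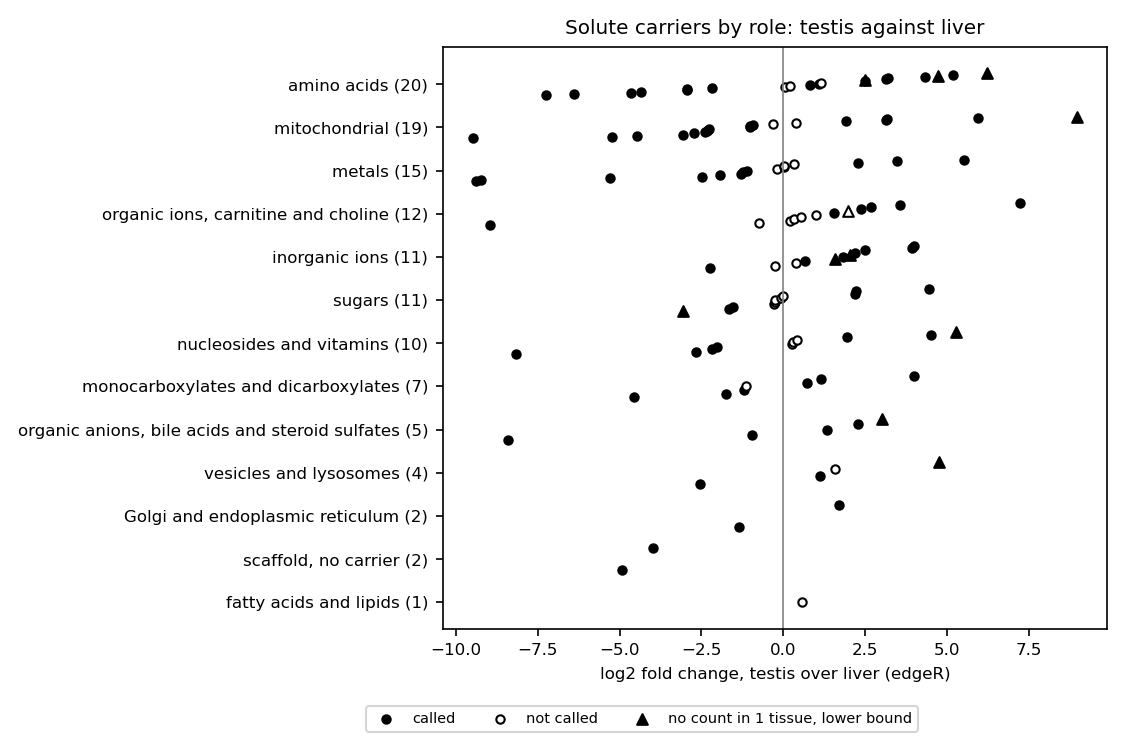
Log2 fold change of testis over liver for the 119 member IDs tested, by the transport role of their family (number of IDs in brackets); filled symbols were called (adjusted p under 0.05, fold of at least 1.5), and triangles mark IDs with no count in a tissue, drawn at the bound that 3 counts allow. Most roles spread to both sides of 0, with 5 to the right and 12 to the left among called mitochondrial carriers and 8 to the right and 1 to the left among called inorganic ion carriers.

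Roles were set by family, and their counts are read beside the 43.5% of all IDs called higher in testis and the 32.2% called higher in liver. Amino acid and peptide carriers were called in both directions, 10 higher in testis and 7 higher in liver of 20 tested. Members of the mitochondrial carrier family SLC25 were mostly higher in liver, 12 of 19, with 5 higher in testis. Among metal carriers 8 of 15 IDs were higher in liver and 3 higher in testis. The 8 include both IDs of SLC39A5, which held nearly equal counts, so 1 gene is counted there by 2 IDs. In contrast, 8 of the 11 inorganic ion carriers were higher in testis and 1 was higher in liver. Carriers of organic ions, carnitine and choline gave 5 of 12 higher in testis and 1 higher in liver, and those of sugars gave 3 in each direction of 11. Carriers of nucleosides and vitamins gave 3 higher in testis and 4 higher in liver of 10, and those of monocarboxylates and dicarboxylates gave 3 in each direction of 7. Families SLC10 and SLCO, set to organic anions, bile acids and steroid sulfates, gave 3 higher in testis and 2 higher in liver of 5. Those set to vesicles and lysosomes gave 2 and 1 of 4. A whole family took 1 role, so single members can carry other substrates. The organic anion transporter SLC22A7, higher in liver, was counted under organic ions, carnitine and choline. SLC17A1, a phosphate and urate transporter higher in liver, was counted under vesicles and lysosomes. The plot of fold changes by role shows this spread. With total counts in place of TMM scaling, the mitochondrial carriers gave 9 higher in liver and 7 higher in testis, the metal carriers 5 and 7, and the inorganic ion carriers 1 and 9, so that the majority among the metal carriers turned. Of the 24 families with at least 2 IDs tested, 18 had members called in both directions, 5 had members higher only in testis, and 1 had members higher only in liver. How often other gene families hold both directions was not counted, and nothing particular to the carriers is read from this. Where relatives differed in direction, they are described side by side below.

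The carriers of bile acids and organic anions that were found differed between the tissues in both directions. Of a list of 15 carriers of steroid sulfates and bile acids, only 3 were found, namely SLC10A1, SLC22A7 and SLCO3A1. SLC10A1, the sodium taurocholate cotransporter of the hepatocyte membrane, had 199, 456 and 760 CPM as its lowest, median and highest liver value and 0.534, 1.33 and 1.86 CPM in testis. Every liver sample was far above every testis sample, with a fitted fold of 339 (log2 fold change -8.40, SE 0.35, adjusted p = 4.92e-17). SLC22A7, the organic anion transporter OAT2, ranged from 8.98 to 69.25 CPM in liver (median 15.2) and from 0 to 0.19 CPM in testis (log2 fold change -8.96, SE 0.58, adjusted p = 3.36e-13). Liver high replicate 3 held the top SLC22A7 value, and no testis library held more than 3 reads of it. SLCO3A1, a widely expressed organic anion polypeptide that carries prostaglandins and thyroid hormone, went the other way with 3.45 to 7.16 CPM in testis (median 5.16) and 0.183 to 2.13 CPM in liver (median 1.13). It was higher in testis by 4.79-fold (log2 fold change 2.26, SE 0.26, adjusted p = 1.87e-08), and its groups did not overlap. SLCO1C1, a carrier of thyroxine, was counted only in testis, with 43 reads over the 10 testis samples and none in liver, which makes it at least 8.02-fold higher in testis. SLCO2A1, the prostaglandin transporter, overlapped between the tissues, with 0.427 to 2.49 CPM in testis and 0.598 to 6.89 CPM in liver.

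All 5 carriers found from a list of 22 hepatocyte uptake carriers were higher in liver. Besides SLC10A1 and SLC22A7 these were SLC39A14, SLC16A13 and SLC17A1. SLC17A1, a phosphate and urate transporter, had 12 to 39.8 CPM in liver and 1.15 to 9.74 CPM in testis, so that its highest testis sample came close to its lowest liver sample. SLC16A13, a monocarboxylate transporter of liver, varied widely among livers, with 3.39, 15.5 and 94.5 CPM as lowest, median and highest, against 0.195 to 1.58 CPM in testis (log2 fold change -4.55, SE 0.51, adjusted p = 1.31e-08, and -3.92 without liver low replicate 3).

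Monocarboxylates, among them lactate and pyruvate, are moved by the SLC16 family. SLC16A7, the high-affinity transporter MCT2 known from sperm, had 40.9 to 102 CPM in testis (median 57.2) and 2.03 to 5.21 CPM in liver (median 4.51). The lowest testis sample was well above the highest liver sample, and the fitted fold was 15.7 (log2 fold change 3.98, SE 0.22, adjusted p = 9.19e-15). SLC16A1, the general transporter MCT1, was higher in liver, with 12.8 to 28.1 CPM against 3.61 to 8.44 CPM in testis (log2 fold change -1.75, SE 0.19, adjusted p = 4.57e-09). Its values did not overlap between the tissues either. SLC16A1 was the exception in a list of 18 carriers known from germ cells, of which 5 were found and the other 4 (SLC25A31, SLC22A16, SLC16A7 and SLC26A6) were higher in testis. SLC26A6, an exchanger of chloride, bicarbonate and oxalate, had 2.87 to 7.95 CPM in testis and 0.293 to 2.17 CPM in liver (log2 fold change 2.19, SE 0.25, adjusted p = 1.38e-08).

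SLC22A16 and SLC22A7 showed how far members of a family were apart. SLC22A16, the carnitine transporter CT2 of testis and epididymis, ranged from 8.65 to 27 CPM in testis (median 15.6), and only 9 reads were counted on it over all 10 livers, against 2439 in testis (log2 fold change 7.22, SE 0.33, adjusted p = 2.73e-16). Its liver values, between 0 and 0.208 CPM, were not separable from 0 at this depth, so the fold is less certain than its SE says. SLC22A17, the receptor for lipocalin-2, had 9.63 to 36.2 CPM in testis and 1.25 to 4.25 CPM in liver (log2 fold change 2.69, SE 0.24, adjusted p = 1.37e-10). SLC22A5, the widespread carnitine transporter OCTN2, had at most 0.958 CPM in testis and 1.59 CPM in liver and was not called.

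**Figure D2:**
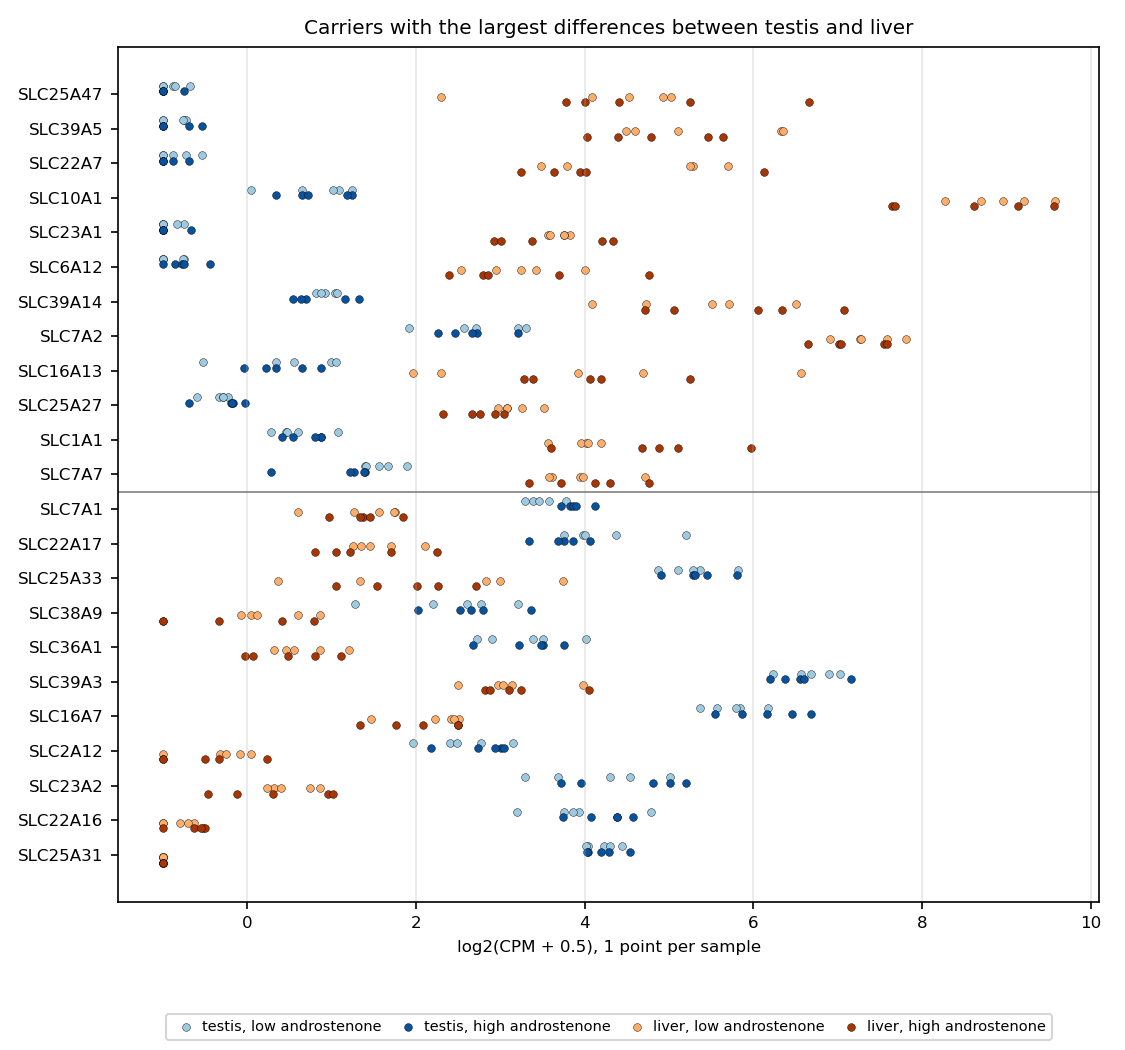
Level in every sample, as log2 of CPM + 0.5, for the 12 solute carriers with the largest fold change higher in liver (upper block) and 11 of the 12 higher in testis (lower block) among those with a mean of at least 5 CPM in the higher tissue and no overlap. Blue points are testis and orange points liver, pale for low and dark for high androstenone; the tissues separate in every line, and SLC25A31 lies at 0 counts in all 10 livers.

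The largest differences among the carriers named by the rule, in both directions, were those of mitochondrial carriers. SLC25A31, the germ cell ADP/ATP carrier ANT4, had 15.6, 18 and 22.7 CPM as lowest, median and highest testis value, and no read in any liver. With 2652 reads over the 10 testes it was at least 495-fold higher in testis. Its spread over testes was small, with a coefficient of variation of 13.5%. The somatic ADP/ATP carriers had the opposite direction. SLC25A4, the carrier ANT1 of heart and muscle, ranged from 381 to 1282 CPM in liver and from 61 to 219 CPM in testis (log2 fold change -2.72, SE 0.24, adjusted p = 1.26e-10). SLC25A5, the carrier ANT2 of dividing cells, overlapped between the tissues, with 18.6 to 310 CPM in liver and 29.8 to 86.3 CPM in testis, and was called higher in liver with a log2 fold change -1.01 (SE 0.32, adjusted p = 0.00635). That direction held under TMM scaling and ended with total counts alone, at a log2 fold change of 0.02.

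**Figure D3:**
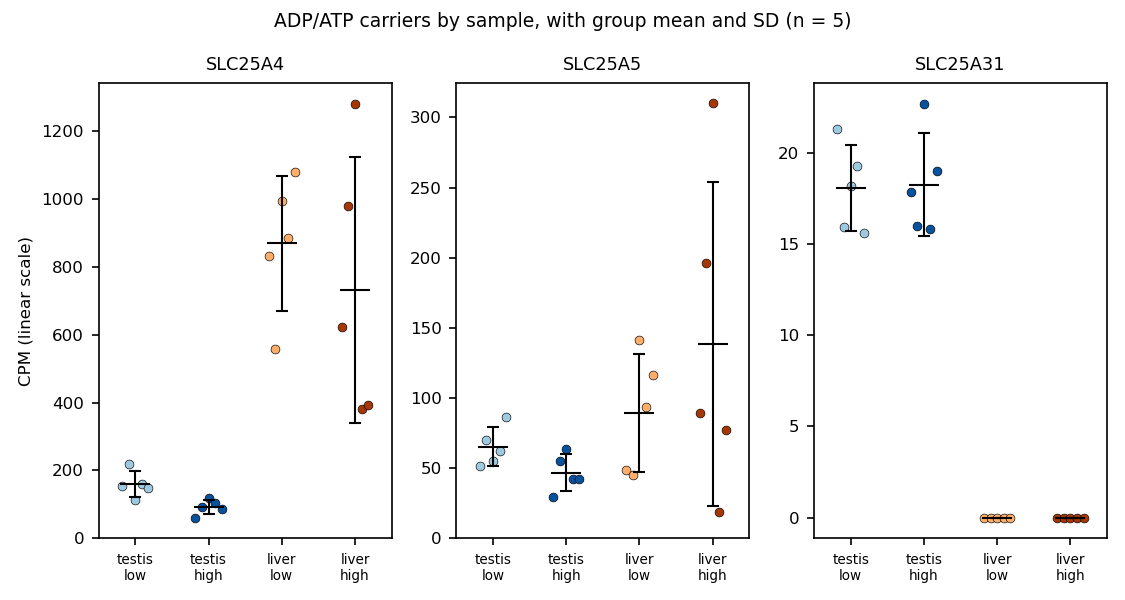
Levels of the ADP/ATP carriers SLC25A4, SLC25A5 and SLC25A31 in CPM on linear scales, 1 point per sample, with the mean and SD of each group of 5. SLC25A4 is separated between the tissues with liver above testis, SLC25A5 overlaps, and SLC25A31 is at 0 in all livers and between 15.6 and 22.7 CPM in testes.

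SLC25A47, a carrier known almost only from liver mitochondria, had 4.41 to 100.3 CPM in liver (median 21.6), with 5 reads in all testes together against 2761 in liver (log2 fold change -9.47, SE 0.60, adjusted p = 1.76e-13, and -10.08 without testis high replicate 5). With so few testis reads its fold is also less certain than the SE says. SLC25A27, the uncoupling protein relative UCP4, had 4.5 to 11 CPM in liver and 0.119 to 0.48 CPM in testis (log2 fold change -4.47, SE 0.22, adjusted p = 1.35e-15). In the other direction, SLC25A33, a carrier of pyrimidine nucleotides, had 28.7 to 55.7 CPM in testis and 0.792 to 12.9 CPM in liver (log2 fold change 3.13, SE 0.33, adjusted p = 3.41e-09). No liver sample reached the lowest testis sample. SLC25A13 and SLC25A1 were also called higher in liver. SLC25A13, the aspartate and glutamate exchanger citrin of the urea cycle, had 13.8 to 54.5 CPM in liver and 4.3 to 8.56 CPM in testis, and SLC25A1, the citrate carrier, had 52.3 to 253 CPM in liver and 21.7 to 29.3 CPM in testis. SLC25A22, a glutamate carrier, was low in both tissues, with at most 2.02 CPM in liver and 0.681 CPM in testis (log2 fold change -2.26, SE 0.45). SLC25A3, which imports phosphate, differed least among the called mitochondrial carriers, with 100.0 to 160.4 CPM in liver and 48.3 to 97.6 CPM in testis. Its direction held with TMM scaling, RLE scaling and DESeq2 and ended with total counts alone, at a log2 fold change of 0.04.

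Among the amino acid carriers, the cationic amino acid transporters split. SLC7A1, the CAT1 carrier of arginine and lysine found in most tissues, had 9.3 to 16.9 CPM in testis and 1.02 to 3.09 CPM in liver (log2 fold change 2.48, SE 0.19, adjusted p = 9.26e-12). SLC7A2, the CAT2 carrier typical of liver, had 99.7 to 224 CPM in liver and 3.29 to 9.36 CPM in testis (log2 fold change -4.64, SE 0.23, adjusted p = 9.61e-16). SLC7A7, the y+LAT1 exchanger, had 9.65 to 26.6 CPM in liver and 0.714 to 3.22 CPM in testis. None of these carriers overlapped between the tissues. SLC1A1, the glutamate transporter EAAT3, ranged from 11.3 to 62.2 CPM in liver and from 0.711 to 1.6 CPM in testis (log2 fold change -4.35, SE 0.25, adjusted p = 3.57e-14). SLC6A12, the betaine and GABA transporter BGT1, had 4.76 to 26.6 CPM in liver and at most 0.238 CPM in testis (log2 fold change -7.24, SE 0.46, adjusted p = 1.90e-13). SLC38A9 and SLC36A1, both known from the lysosomal membrane, were higher in testis. SLC38A9, the lysosomal arginine sensor, had 1.92 to 9.79 CPM in testis and 0 to 1.33 CPM in liver (log2 fold change 3.14, SE 0.37, adjusted p = 3.35e-08), and SLC36A1, a proton-coupled carrier of small amino acids, had 5.91 to 15.6 CPM in testis and 0.483 to 1.81 CPM in liver (fold 9.19, SE of the log2 fold change 0.26, adjusted p = 2.87e-11).

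SLC6A17, SLC1A6 and SLC17A6, which are known from neurons, were counted in testis and had no read in liver. SLC6A17, a vesicular amino acid transporter of neurons, had 394 reads over the testes and was at least 73.5-fold higher there. SLC1A6, the glutamate transporter EAAT4, was at least 26.5-fold higher with 142 reads, and SLC17A6, the vesicular glutamate transporter VGLUT2, at least 26.7-fold higher with 143 reads. These levels were low, since no testis sample exceeded 5.35 CPM for SLC6A17, 1.46 CPM for SLC1A6 or 1.9 CPM for SLC17A6. SLC17A7, the vesicular glutamate transporter VGLUT1, had 10 reads in testis and 2 in liver, a ratio of 2.80 with a 95% counting interval of 0.596 to 26.3. Of the 11 tested IDs without a read in a tissue, 10 were missing from liver and 1, the inositol transporter SLC5A11, was missing from testis, where it was at least 8.34-fold lower. Over 10 libraries, 3 reads were worth 0.0363 CPM in liver and 0.0203 CPM in testis, so weak transcripts fall to 0 more readily in liver. How often other IDs were missing from a tissue was not counted.

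The ascorbate transporters of family SLC23 differed in direction. SLC23A2, the ascorbate transporter SVCT2, had 9.3, 21 and 36.4 CPM as lowest, median and highest testis value and 0.224, 0.783 and 1.52 CPM in liver (log2 fold change 4.50, SE 0.31, adjusted p = 1.00e-12). SLC23A1, the ascorbate transporter SVCT1 of liver, kidney and gut, had 7.08, 12.3 and 19.6 CPM in liver and at most 0.13 CPM in testis (log2 fold change -8.16, SE 0.41, adjusted p = 1.72e-15, and -9.22 without testis high replicate 2, the top testis value). Neither overlapped between the tissues. No testis library held more than 3 reads of SLC23A1, so its fold is less certain than the SE says. The equilibrative nucleoside transporters were also found on both sides, with SLC29A1 (ENT1) at 8.96 to 22.8 CPM in liver and 1.46 to 3.93 CPM in testis, and SLC29A2 (ENT2) at 0.585 to 2.88 CPM in testis and no read in liver, a difference of at least 38.2-fold.

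Zinc transporters of the ZIP family, SLC39, which move zinc into the cytosol, were found on both sides. SLC39A3 (ZIP3) had 73.1 to 143 CPM in testis and 5.16 to 16.1 CPM in liver (log2 fold change 3.47, SE 0.22, adjusted p = 2.23e-13), and SLC39A4 (ZIP4) had 14.3 to 41.6 CPM in testis and 2.77 to 10.4 CPM in liver. SLC39A14 (ZIP14), which also takes up manganese and iron in liver, had 16.5 to 135 CPM in liver and 0.952 to 2.01 CPM in testis (log2 fold change -5.31, SE 0.34, adjusted p = 2.32e-13). SLC39A5 (ZIP5) had 15.8 to 81.2 CPM in liver and at most 0.192 CPM in testis on its ID with most reads. Its 2 IDs held nearly equal counts, 3584 and 3478 reads over the livers, and how reads shared by the 2 sequences were counted is not given in the sources used here, so the level of SLC39A5 is uncertain. Its direction was the same on both IDs. Of the zinc exporters, SLC30A4 had 2.24 to 6.28 CPM in testis and at most 0.299 CPM in liver, whereas SLC30A7, the Golgi zinc carrier, overlapped between the tissues and was called higher in liver (log2 fold change -1.11, SE 0.27).

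A facilitative and a sodium-coupled glucose carrier were higher in testis. Of family SLC2 only 3 members were found, SLC2A4, SLC2A11 and SLC2A12, with 1 called in each direction and 1 not called. No tissue difference of glucose carriers in general is read from these. SLC2A12, the facilitative glucose transporter GLUT12, had 3.42 to 8.37 CPM in testis and 0 to 0.673 CPM in liver (log2 fold change 4.45, SE 0.36, adjusted p = 2.14e-11). SLC5A1, the sodium-glucose cotransporter SGLT1, had 5.13 to 11.8 CPM in testis and 1.55 to 3.51 CPM in liver (log2 fold change 2.21, SE 0.20, adjusted p = 1.46e-10). Neither overlapped between the tissues. SLC50A1, a sugar carrier of the SWEET family, had 13.9 to 43.4 CPM in testis and 21 to 36.8 CPM in liver and was not called (log2 fold change -0.29, adjusted p = 0.112). With a mean of at least 5 CPM in both tissues, SLC25A28, SLC25A44, SLC30A9, SLC39A13 and SLC44A2 were likewise not called.

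The spread of a carrier between samples was described by its coefficient of variation. Over the 10 samples of a tissue, its median was 25.3% for the 41 carriers with a mean of at least 5 CPM in testis and 43.7% for the 42 such carriers in liver, against 23.0% and 36.4% for all IDs at that level. The steadiest were SLC25A1 in testis (10.3%) and SLC25A3 in liver (16.9%), and the most variable were SLC35A4 in testis (54.9%), a Golgi carrier of the nucleotide sugar family, and SLC25A25 in liver (116%), a calcium-regulated ATP-Mg and phosphate carrier. SLC25A25 ran from 0.55 to 29.9 CPM among livers, with the top value in liver high replicate 3.

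The second comparison asked whether carriers differ between high and low androstenone within a tissue. In testis 108 members were tested and none was called by edgeR at an adjusted p under 0.05, as was 0% of all 18340 IDs tested. An unadjusted p under 0.05 was reached by 11 members (10.2%, against 9.49% of all IDs). Of these, 3 were higher in high androstenone (2.78%, against 3.18% of all IDs) and 8 were lower (7.41%, against 6.31%), and the smallest adjusted p of a member was 0.328. Without testis low replicate 2 the 11 became 5, and the 1741 of all IDs became 1268. The groups did not overlap for 1 member (0.926%, against 1.86% of all IDs), which was SLC7A7, lower in high androstenone (against 1.1% of all IDs in that direction). Its values were 2.14, 2.67, 3.22, 2.46 and 2.15 CPM in low and 2.13, 1.90, 2.11, 0.714 and 1.82 CPM in high androstenone, a gap that was narrow at its closest (log2 fold change -0.54, SE 0.27, adjusted p = 0.556 by edgeR).

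SLC25A4 had the smallest p among the testis carriers. The low androstenone testes had 155, 219, 112, 160 and 149 CPM and the high androstenone testes 61.0, 90.9, 119, 104 and 87.6 CPM. Only the highest of the high group exceeded the lowest of the low group. The means were 159 ± 38.2 CPM and 92.5 ± 21.5 CPM (SD, n = 5 each; exact permutation p = 0.0159, two-sided, smallest possible 0.00794), with a log2 fold change of -0.80 (SE 0.21, adjusted p = 0.328). Leaving out each sample in turn gave log2 fold changes between -0.91 and -0.66. DESeq2 called this carrier, with a log2 fold change of -0.78 and an adjusted p of 0.0353, as 1 of 120 reference IDs. Its relative SLC25A5 had 65.3 ± 13.8 CPM in low and 46.7 ± 13.2 CPM in high androstenone (SD, n = 5 each), with an adjusted p of 0.464 by edgeR, and SLC25A31 had 18.1 ± 2.37 and 18.3 ± 2.81 CPM (SD, n = 5 each).

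The other testis carriers with the smallest p lower in high androstenone were SLC16A4, SLC6A8 and SLC22A17. SLC16A4, the monocarboxylate transporter relative MCT5, had 3.70, 3.21, 2.16, 2.74 and 2.97 CPM in low and 1.17, 1.77, 2.59, 1.07 and 1.34 CPM in high androstenone. A single sample of the high group lay within the range of the low group (log2 fold change -0.90, SE 0.28, adjusted p = 0.356 by edgeR). SLC6A8, the creatine transporter, had 3.31, 10.04, 3.80, 4.10 and 4.37 CPM in low and 3.25, 3.50, 2.30, 2.38 and 2.88 CPM in high androstenone, and its log2 fold change of -0.82 became -0.45 without testis low replicate 2. The same library carried the highest SLC22A17 value, 36.2 CPM against 13.0 to 20.2 CPM in the other low androstenone testes and 9.63 to 16.2 CPM in the high group, and the log2 fold change of -0.63 became -0.30 without it. SLCO3A1 had 6.17 ± 0.879 CPM in low and 4.51 ± 0.732 CPM in high androstenone (SD, n = 5 each; exact permutation p = 0.0159), with an adjusted p of 0.472 by edgeR.

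Higher in high androstenone, with the smallest p, were SLC22A20, SLC7A1, SLC25A48 and SLC3A1. SLC22A20, the organic anion transporter OAT6, had 21 reads in all over the 10 testes, with 0.0547 CPM in 1 low androstenone testis and 0 in the others, and 0.585, 0.13, 0, 0.595 and 0.096 CPM in high androstenone testes (adjusted p = 0.345 by edgeR). The low group rested on 1 read, so no fold is given. SLC7A1 had 11.5, 13.2, 9.93, 10.5 and 9.30 CPM in low and 13.7, 14.1, 14.5, 16.9 and 12.7 CPM in high androstenone (log2 fold change 0.38, SE 0.16, adjusted p = 0.489 by edgeR). Testis high replicate 5 was the only sample of its group below the top of the low group. SLC3A1, the heavy subunit rBAT of the cystine carrier, had 6.46 ± 1.56 CPM in low and 8.75 ± 1.00 CPM in high androstenone (SD, n = 5 each; exact permutation p = 0.0317). By edgeR its log2 fold change was 0.42 with an adjusted p of 0.53, and its unadjusted p was not under 0.05.

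Markers of other cells also differed in range between these testis groups, and of the 35 markers tested in testis 4 were lower in high androstenone at an unadjusted p under 0.05 by edgeR, namely 3 of the 5 leukocyte markers and HBB, and 1 was higher. Over all IDs these shares were 6.31% and 3.18%. The marker with higher values was the Leydig cell enzyme CYP17A1, with 111.5 to 332 CPM in low and 92.7 to 602.3 CPM in high androstenone testes (log2 fold change 0.86, SE 0.39, adjusted p = 0.513 by edgeR). The summed level of the 5 leukocyte markers was 10.7 to 23.4 CPM in low and 8.44 to 11.2 CPM in high androstenone testes, and HBB was 25.5 to 244.5 CPM and 11.7 to 47.5 CPM. Summed Leydig cell markers were 694 to 3324 CPM in low and 823 to 3406 CPM in high androstenone, summed Sertoli cell markers 137 to 209 CPM and 58.4 to 193 CPM, and summed spermatid markers 2171 to 7186 CPM and 5258 to 7780 CPM. Their part in the carrier values was not tested.

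**Figure D4:**
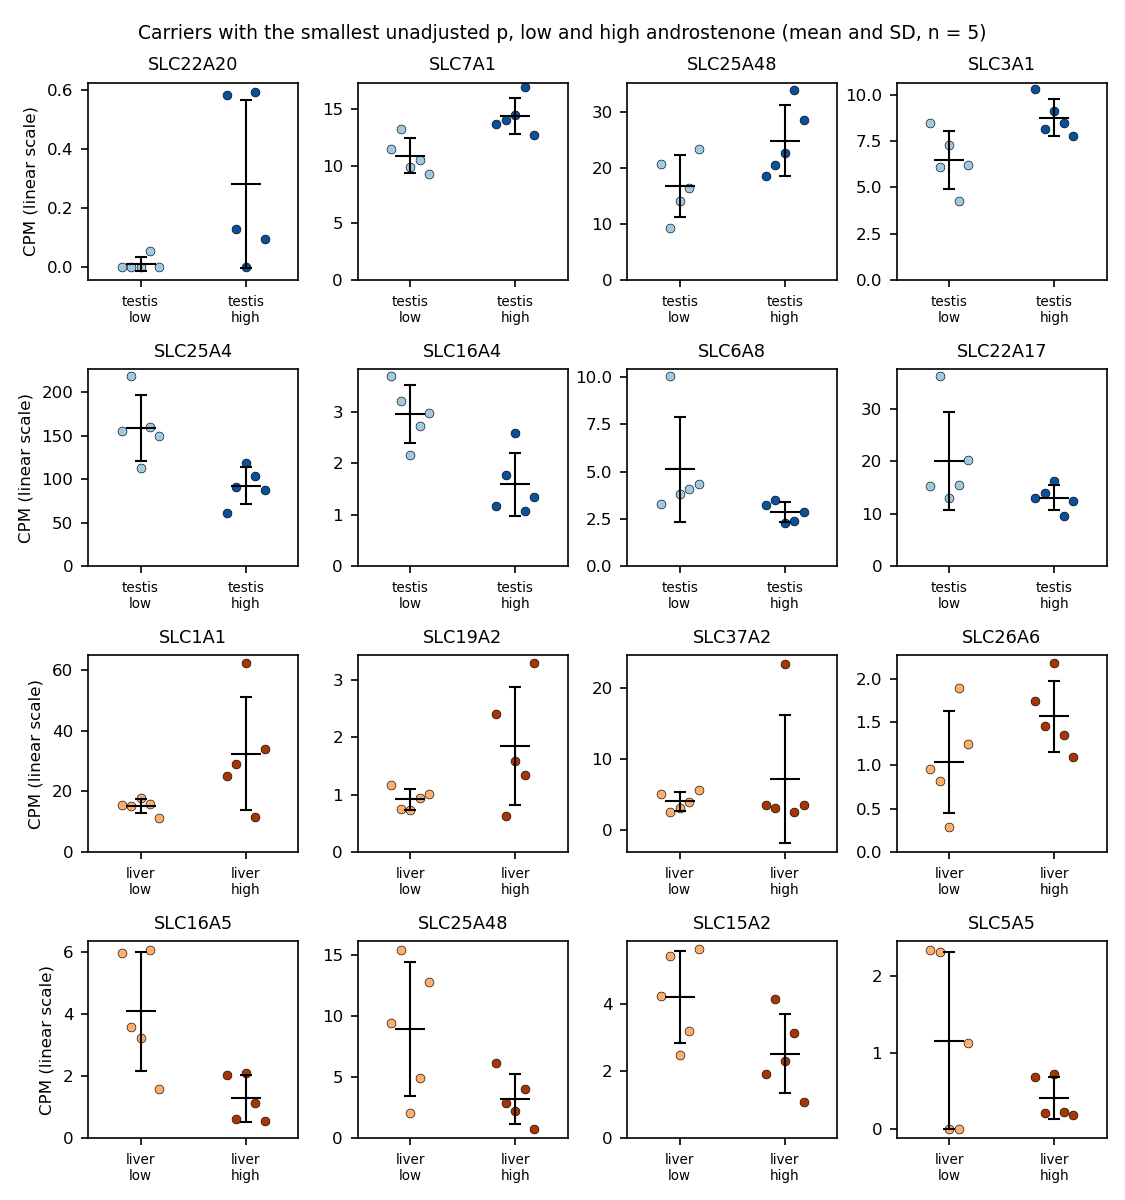
CPM on linear scales in low and high androstenone samples, 1 point per sample with mean and SD (n = 5), for the 4 solute carriers with the smallest unadjusted p in each direction, testis in the upper rows and liver in the lower rows. The groups overlap in every panel, none passed an adjusted p under 0.05 with edgeR, and the top SLC37A2 value of 23.35 CPM is liver high replicate 3.

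In liver 94 members were tested and none was called by edgeR, as was 0% of all 15855 IDs tested. An unadjusted p under 0.05 was reached by 4 members (4.26%, against 2.93% of all IDs). SLC1A1 and SLC19A2 were higher in high androstenone (2.13%, against 1.24% of all IDs), and SLC16A5 and SLC25A48 were lower (2.13%, against 1.69%). DESeq2 called no carrier in liver. The adjusted p of every member by edgeR was 0.9999, and no member had groups that did not overlap, against 0.555% of all IDs.

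SLC1A1 had 15.7, 15.1, 17.8, 15.9 and 11.3 CPM in low and 25.2, 28.9, 62.2, 11.7 and 34.1 CPM in high androstenone livers. In the high group 4 of 5 livers were above every liver of the low group, and liver high replicate 4 lay at the bottom of that range. The means were 15.1 ± 2.36 and 32.4 ± 18.6 CPM (SD, n = 5 each; exact permutation p = 0.0397), with a log2 fold change of 1.15 (SE 0.35) that stayed between 0.81 and 1.36 when each sample was left out in turn. SLC16A5, the MCT6 member of the monocarboxylate family, had 5.96, 3.59, 3.23, 6.06 and 1.58 CPM in low and 2.03, 0.625, 2.10, 1.12 and 0.55 CPM in high androstenone livers. Only liver low replicate 5 fell within the range of the high group (log2 fold change -1.51, SE 0.45, exact permutation p = 0.0238). SLC19A2, a thiamine transporter, had 0.924 ± 0.186 CPM in low and 1.86 ± 1.03 CPM in high androstenone (SD, n = 5 each; exact permutation p = 0.0952).

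The bile acid and organic anion carriers of liver overlapped between the androstenone groups. SLC10A1 had 498, 593, 414, 308 and 760 CPM in low and 199, 565, 755, 390 and 205 CPM in high androstenone livers, a log2 fold change of -0.22 with an SE of 0.39. SLC22A7 had 10.6, 13.3, 51.6, 38.5 and 37.6 CPM in low and 14.9, 15.6, 69.25, 8.98 and 11.9 CPM in high androstenone livers (log2 fold change -0.31, SE 0.57, and -1.18 without liver high replicate 3). The high group spanned nearly the whole range of the low group for both carriers. SLC37A2, a sugar phosphate exchanger of the endoplasmic reticulum, showed how liver high replicate 3 could set a mean, with 23.35 CPM there and 2.47 to 3.48 CPM in the other high androstenone livers. The log2 fold change was 0.90 with that library and -0.27 without it.

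The last comparison was the test of the difference between the tissues, the interaction of tissue and androstenone group. No member of 119 was called by edgeR, as was 0% of all 19065 IDs, and 5 members (4.2%, against 4.67% of all IDs) reached an unadjusted p under 0.05. That number became 8 without liver high replicate 4 and 3 without liver low replicate 1. Over all IDs it moved as well, from 890 to 1252 of 19043 and to 752 of 19031. DESeq2 called no carrier either. The smallest p was that of SLC25A48, a mitochondrial carrier linked to choline, with an interaction of 2.03 on the log2 scale and an adjusted p of 0.961 by edgeR. SLC25A48 had 20.8, 9.30, 14.1, 16.4 and 23.4 CPM in low and 18.6, 20.6, 22.7, 34.0 and 28.6 CPM in high androstenone testes. In livers it had 9.47, 15.4, 2.05, 4.93 and 12.8 CPM in low and 6.18, 2.92, 2.25, 4.04 and 0.733 CPM in high androstenone. The log2 fold changes were 0.54 in testis and -1.39 in liver, and within each tissue the groups overlapped. Of the 85 member IDs tested in both tissues, 42 had opposite directions in the tissues.

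**Figure D5:**
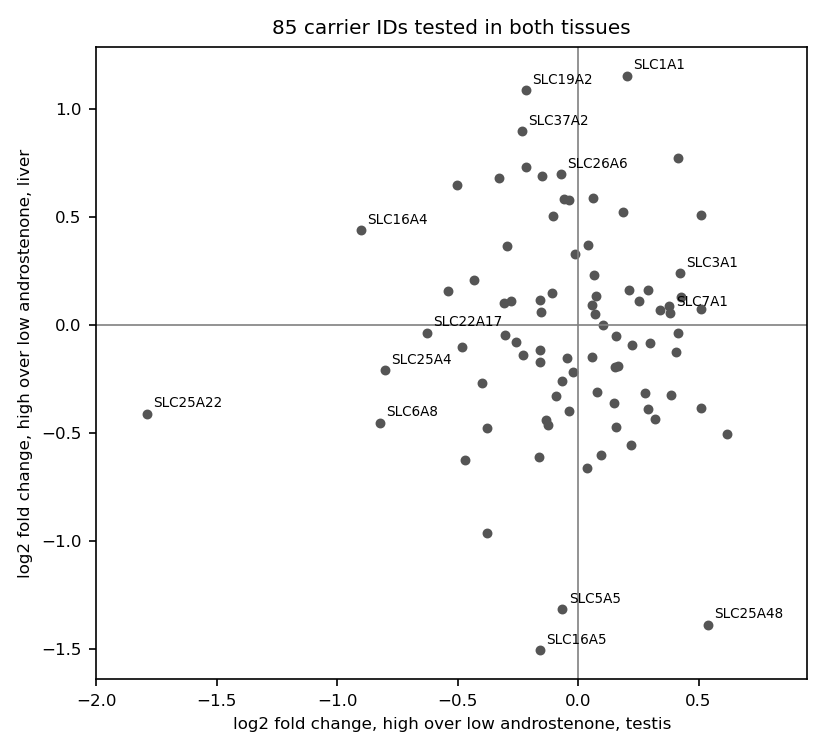
Log2 fold change of high over low androstenone in testis (x axis) and in liver (y axis) for the 85 solute carrier IDs tested in both tissues, with named carriers marked. The points lie on all sides of 0, 42 of them with opposite signs, and SLC25A48 lies at 0.54 in testis and -1.39 in liver.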

How the data were processed

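RNA of 20 testis and liver samples was sequenced as single Illumina reads, with a lane for each sample, from libraries of a protocol that does not mark strand. The authors filtered reads with CASAVA 1.7 and used BWA and SAMtools, per the labels and the submitters' processing notes, to align them to RefSeq mRNA and UniGene sequences of Sscrofa 9.2, and deposited raw counts per reference ID. The counting program and the treatment of reads matching several sequences are not given in the sources used here. The 21785 lines held 21755 IDs, because 10 IDs occurred 4 times each, and each was kept a single time. IDs were paired with symbols through a RefSeq table of Sscrofa11.1, of which no coordinates were used.

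Counts were tested with edgeR 4.0.16 in R 4.3.3 (quasi-likelihood, TMM, at least 10 summed counts, Benjamini-Hochberg over all IDs, called where adjusted p was below 0.05 and the fold was 1.5 or more): 4 groups over 20 samples for the tissues and the interaction, and 10 samples within a tissue. Standard errors were taken from the F statistic, as the size of the log2 fold change over its root. Where a tissue held only a few reads of a carrier, such an SE does not measure the counting error of the fold. Exact two-sided permutation tests used log2(CPM + 0.5). IDs without a count in a tissue were given a bound from 3 counts over its 10 libraries. Named were the 12 largest called differences per direction with a mean of at least 5 CPM in the higher tissue and no overlap, the 4 smallest p per direction for androstenone, and the found members of 4 carrier lists. A carrier that this rule names is not reported here. Other carriers were named as examples after their values were seen. The members and lists were chosen with earlier results of these data known. Alternatives were RLE and total-count scaling, DESeq2 1.42.0, other filters and folds, a trended dispersion, all samples in 1 fit, summed IDs, a replicate block and leaving out each sample; leaving out liver high replicate 3 and testis low replicate 2 together was chosen after seeing the data. The fits were tested on simulated data. Lengths were not used, so levels are not compared between genes.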

Additional observations from a re-analysis of the deposited data

Results flagged for a closer look

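In each group of 5, the highest or lowest value of the 36 named carriers was compared with the rest by its gap, and 11 of 144 groups held a value far from the others. The usual rate of about 1 in 20 holds for normally distributed values. It does not apply where a value rests on at most 3 reads, as for several flags below. No excess of such values is read from the count. In liver high replicate 3, SLC22A7 was at 69.25 CPM against 8.98 to 15.6 CPM in the other livers of its group, and SLC37A2 was at 23.35 CPM against 2.47 to 3.48 CPM. In testis low replicate 2, the creatine transporter SLC6A8 was at 10.04 CPM against 3.31 to 4.37 CPM. In testis high replicate 4, SLC7A7 was at 0.714 CPM against 1.82 to 2.13 CPM, and SLC25A27 was at 0.119 CPM, worth 1 read there, against 0.372 to 0.48 CPM. In liver low replicate 4, SLC16A7 was at 2.27 CPM against 4.18 to 5.21 CPM. The remaining values also rested on at most 3 reads in a library. SLC22A16 was at 0 CPM in liver high replicate 4 against 0.145 to 0.208 CPM in the others. For SLC25A47 in testis high replicate 5 (0.096 CPM), SLC23A1 in testis high replicate 2 (0.13 CPM), SLC22A20 in testis low replicate 4 (0.0547 CPM) and SLC15A2 in testis high replicate 2 (0.0432 CPM), every other sample of the group was at 0.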

How the results depend on the processing

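The count of members differing between testis and liver, scaffolds included, lay between 89 and 92 when each sample was left out in turn. It was 92 of 118 tested without liver high replicate 3 and testis low replicate 2, beside 14422 of all 18994 IDs. With total counts alone it was 99 of 119, beside 14925 of 19065 IDs. In low androstenone samples alone it was 80 of 110 tested, beside 12991 of 18386 IDs. In high androstenone samples alone it was 87 of 114 tested, beside 12938 of 18280 IDs. No difference between the androstenone groups is read from these counts. For androstenone, leaving out each sample gave 0 called carriers in testis, in liver and for the interaction. DESeq2 called 1 carrier in testis, SLC25A4 at a log2 fold change of -0.78, and 120 IDs in all, against 0 with edgeR. The trended dispersion, which leaves out the gene-wise spread between boars, called 2 carriers in testis, SLC25A4 and SLC22A20, and 225 IDs in all, and in liver 0 carriers and 45 IDs. In liver, the log2 fold change of SLC37A2 lay between -0.27, without liver high replicate 3, and 1.10 when each sample was left out. The 4 carriers at an unadjusted p under 0.05 by edgeR became 2 without liver low replicate 2, and the 465 of all IDs became 327. The cause was not tested. Same-numbered testis and liver samples correlated between -0.0556 and 0.464 over deviations from the group means, with 7 of 10 pairs over 0.1. Only 4 of the 10 testis and 3 of the 10 liver samples correlated best with their own number. The labels do not tie equal numbers to a boar, although both tissues came from the same boars, so the numbers were not taken as pairs. The replicate block gave 89 of 119 members between the tissues, beside 14201 of 19065 IDs, and 0 for each androstenone comparison. Levels under 0.673 CPM in liver or 0.357 CPM in testis can rest on fewer than 3 counts.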

Other observations

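Other membrane transporters were counted beside the solute carriers. From lists of ABC transporters, ion pumps and aquaporins, 29 IDs were found and 24 tested, of which 9 were higher in testis and 10 higher in liver, beside 43.5% and 32.2% of all IDs tested. ABCB11, the bile salt export pump that completes the route begun by SLC10A1, had 79.2 to 483.5 CPM in liver and at most 0.213 CPM in testis (log2 fold change -11.70, adjusted p = 9.50e-17 by edgeR). AQP7, the aquaglyceroporin of sperm and fat, had 149.7 to 443.5 CPM in testis and 0.448 to 10.2 CPM in liver, and AQP8 had 11.9 to 34.6 CPM in testis and at most 0.213 CPM in liver. AQP9, the glycerol channel of hepatocytes, was higher in liver, with 18.2 to 114.8 CPM against 1.71 to 6.39 CPM. All 5 found of 10 partners and regulators of carriers were higher in liver. NR1H4, the bile acid receptor FXR, had 60.8 to 187.1 CPM in liver and at most 0.778 CPM in testis. HNF4A, a transcription factor of hepatocytes, had 17.2 to 33.1 CPM in liver and at most 0.905 CPM in testis.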
